A study of Caenorhabditis elegans with 6 samples.

Results

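The transcripts of 37 enzyme genes of glycolysis, gluconeogenesis, the citrate cycle and the glyoxylate cycle were followed in *C. elegans* grown with a low dose mixture (LDM) of chlorpyrifos (CPF) and diazinon (DZN). The genes were listed by name, and the sequence name of each array probe was matched to the gene symbol. Of the 37 genes 35 had a probe on the array, and 33 had enough unmarked spots to be tested, among 7989 tested genes of 18889 with a probe. No position on the array carried the sequence names of gpd-1 and gpd-4, which encode glyceraldehyde-3-phosphate dehydrogenases, so that both were not analysed here. The probes of pfk-1.2, the second phosphofructokinase gene, and idh-1, a cytosolic isocitrate dehydrogenase gene, were on the array, but the image software marked their spots on 4 and 6 of the 6 arrays.

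CPF and DZN are organophosphorus insecticides that inhibit acetylcholinesterase. Bristol N2 worms were raised from synchronized eggs at 16 °C on agar seeded with E. coli OP50, with CPF and DZN together at 0.5 and 1 mg/l in acetone, or with an equivalent amount of acetone alone in the control. The labels state the same doses per ml instead of per litre, and this was not resolved. After 72 h, when the labels and methods place the worms at the L3 to L4 stage, whole worms of 4 dishes were pooled into each sample. LDM and control RNA were hybridized together on 6 two-colour arrays, with LDM in Cy5 on 3 arrays and in Cy3 on the other 3, and the methods call the arrays independent biological replicates. Each ratio below is a log2 ratio of LDM over control after normalization, which sets the typical gene of each array near 0. A ratio of 0 thus means no change relative to the typical gene, and -1 a halving relative to it. A shift shared by most genes would not show. In whole worms, fewer cells of a type and less RNA per cell cannot be told apart.

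Glycolysis breaks glucose down to pyruvate, and gluconeogenesis runs most of the same steps backwards with a few enzymes of its own at the irreversible steps. Pyruvate enters the citrate cycle in the mitochondria as acetyl-CoA and is oxidised there, which feeds the respiratory chain. Worms also have a glyoxylate cycle, absent from mammals, which lets them make sugar from stored fat.

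The arrays differed in quality and in how the genes moved. With LDM in Cy5 the median scanner intensity of either dye lay between 273 and 368, and with LDM in Cy3 between 586.5 and 1259. The image software left 37.6 to 41.9% of the spots unmarked in the first orientation and 56.5 to 61.4% in the second. Over the tested genes the ratios of 2 arrays correlated between -0.38, for LDM in Cy5 replicates 2 and 3, and 0.41. The direction of every ratio was taken from the dyes in the labels. LDM in Cy3 replicate 1 was image-analysed apart from the other arrays, with another spot-finding method. In the scanner headers this array shared the number of its control extract with LDM in Cy5 replicate 3, so that whether these controls were independent is uncertain.

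None of the 33 enzymes passed the test with limma at an adjusted p under 0.05, against 30 of 7989 tested genes (0.376%, 25 higher and 5 lower). None passed by rank product either, where 138 genes did (1.73%). At an unadjusted p under 0.05 in limma, fbp-1 was lower, 1 of 33 enzymes against 4.92% of all tested genes. No enzyme was higher at that level, against 4.39%. The log2 ratios of the enzymes ran from -0.54 for fbp-1 to 0.36 for hxk-3, with 12 above 0 and 21 below. Their median was -0.08, and that of all tested genes -0.03. Of the 33 ratios 24 lay within 0.2 of 0, and adjusted p-values from limma ran from 0.286 to 0.994.

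The precision of the arrays sets a bound on what could have been missed. The 95% confidence interval lay within 1 of 0 on the log2 scale for 33 of 33 enzymes, where 91.6% of all tested genes met the same bound. With all arrays weighted alike, a doubling or halving of the mean ratio thus lay outside the interval for the 27 enzymes without saturated pixels. The other 6 had spots with pixels at the ceiling of the scanner, which can compress a ratio, so that for them the interval is no such bound. In the control channel these pixels reached 50% of the spot for aldo-2, 44.3% for gpd-2, 38.7% for mdh-2, 30.3% for icl-1, 14.5% for fbp-1 and 11.8% for gpd-3. Counted over all 33 enzymes, those with saturated pixels included, the interval lay within 0.6 of 0 for 23. Of all 7989 tested genes 4634 met that bound. Standard errors ran from 0.11 to 0.21. With arrays weighted unequally pyk-2, which had no saturated pixels, was at -0.72 (SE 0.125). The intervals of such other fits were not compared with these bounds. The enzymes were also bright probes, since 94.3% of those on the array could be tested and 42.3% of all genes could.

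**Figure D1:**
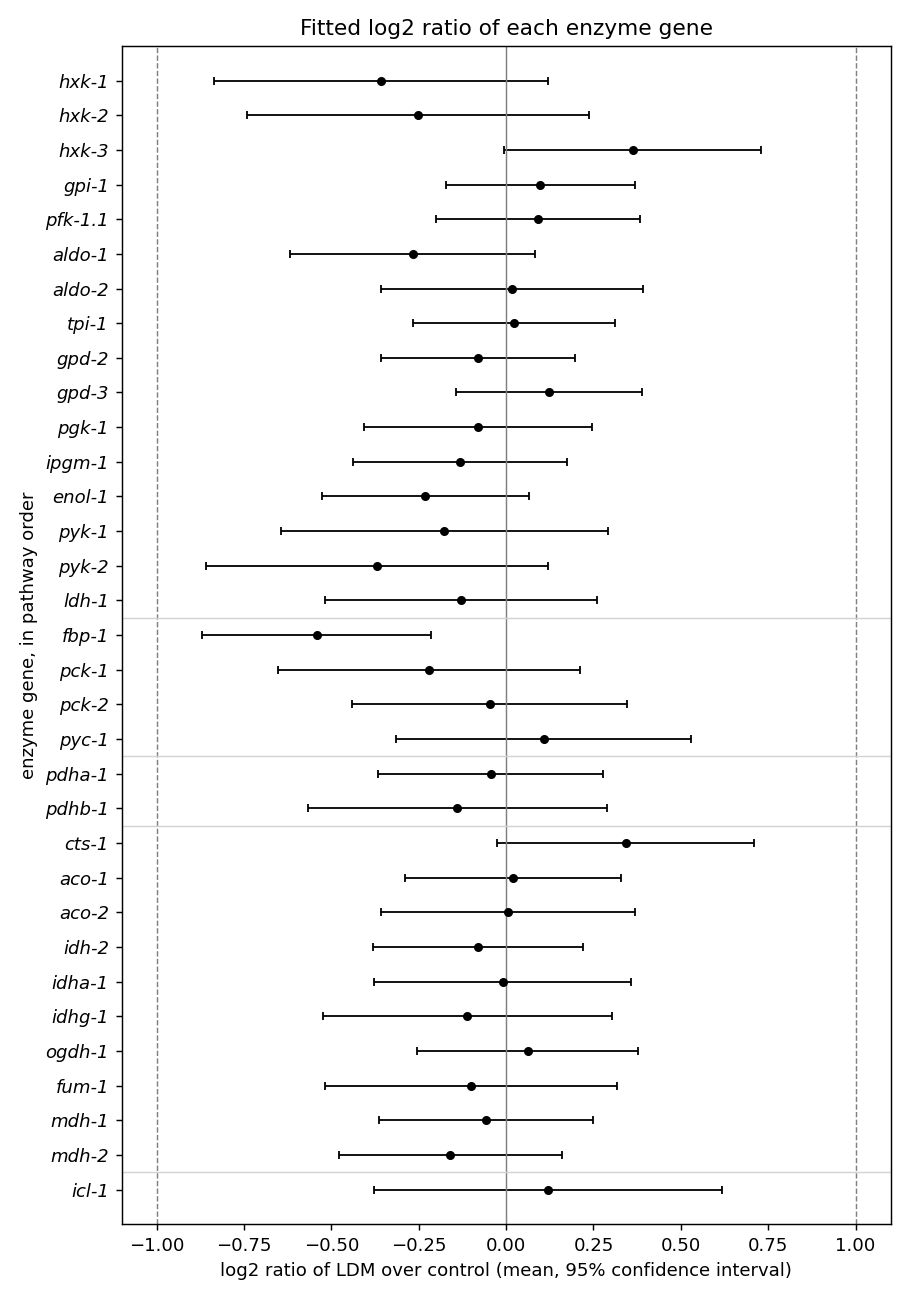
Fitted log2 ratio of LDM over control (x axis) of the 33 tested enzyme genes in pathway order (y axis, grey lines between glycolysis, gluconeogenesis, pyruvate dehydrogenase, citrate cycle and glyoxylate cycle), with bars for the 95% confidence interval over 6 arrays (5 for pck-1). All 33 intervals stay inside the dashed lines at -1 and 1, and that of fbp-1, -0.87 to -0.22, is the one that leaves out 0.

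Glucose is first phosphorylated by hexokinases, which trap it in the cell. On LDM in Cy5 replicates 1 to 3 and then LDM in Cy3 replicates 1 to 3, hxk-3 had log2 ratios of 0.69, 1.28, 0.35, -0.24, -0.17 and 0.27. Its ratio was above 0 on all 3 arrays with LDM in Cy5 but on only 1 of those with LDM in Cy3. The mean was 0.36 (SE 0.16, 95% confidence interval -0.005 to 0.73), with an adjusted p of 0.544 from limma, and with ratios scaled between arrays it was 0.11. In the same order of arrays, hxk-1 had -1.09, 0.28, -1.18, -0.01, 0.10 and -0.26, and hxk-2 had -0.70, 0.56, -1.03, 0.07, -0.08 and -0.33. Both were far below control on LDM in Cy5 replicates 1 and 3 and above it on replicate 2. Their means, -0.36 ± 0.62 and -0.25 ± 0.57 (SD, n = 6), were smaller than the spread between arrays.

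The next steps rearrange the hexose and split it. The isomerase gene gpi-1 had a log2 ratio of 0.10 and the phosphofructokinase gene pfk-1.1, whose enzyme commits sugar to glycolysis, one of 0.09, with SDs of 0.21 and 0.20. A second tested probe of pfk-1.1 averaged 0.02, with an SD of 0.45. The second phosphofructokinase, pfk-1.2, had an unmarked spot on only 2 arrays, LDM in Cy3 replicates 1 and 2, with -0.62 and -0.82, and was not tested. Aldolase cuts the hexose bisphosphate into triose phosphates. The aldolase gene aldo-1 was at -0.73, 0.10, -0.78, -0.02, -0.05 and -0.13 on the arrays in the order above, below 0 on 5 of 6, with a mean of -0.27 (SE 0.15) and an adjusted p of 0.655 from limma. Its paralog aldo-2 averaged 0.02 and tpi-1, for the triosephosphate isomerase that interconverts both trioses, 0.02.

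Energy is recovered in the lower steps of glycolysis. Glyceraldehyde-3-phosphate dehydrogenase was measured by gpd-2 (-0.08) and gpd-3 (0.12), neighbouring and nearly identical genes on the X chromosome, whose transcripts probes may not separate. Across the arrays gpd-2 ran from -0.29 to 0.14 and gpd-3 from -0.05 to 0.36, and gpd-3 was above gpd-2 on 5 of 6 arrays, by up to 0.42. Under median centring instead of loess, gpd-2 moved to 0.13, above 0, and gpd-3 to 0.33. The phosphoglycerate kinase gene pgk-1, for the first step that makes ATP, was at -0.09, 0.17, -0.64, 0.02, -0.01 and 0.06. LDM in Cy5 replicate 3 stood apart from the other 5 arrays for this gene. The phosphoglycerate mutase gene ipgm-1, of a cofactor-independent type that mammals lack, was below 0 on 5 of 6 arrays with a mean of -0.13 (SE 0.13).

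Enolase makes phosphoenolpyruvate. Its gene enol-1 was below control on all 6 arrays, at -0.55, -0.06, -0.63, -0.03, -0.02 and -0.09. Only LDM in Cy5 replicates 1 and 3 lay clearly under 0, and the other 4 lay within 0.1 of it. The mean was -0.23 (SE 0.13, adjusted p = 0.648 from limma). A second probe of enol-1 gave -0.03 and was above 0 on 3 of 6 arrays.

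Pyruvate kinase closes glycolysis and makes ATP. The gene pyk-2 had log2 ratios of -1.48, -0.86, 0.17, -0.01, -0.24 and 0.20. The low values came from LDM in Cy5 replicates 1 and 2, the other 4 arrays lay between -0.24 and 0.20, and the mean was -0.37 ± 0.67 (SD, n = 6). The gene pyk-1 averaged -0.18, with -0.97, 0.47 and -0.85 where LDM was in Cy5 and 0.17, -0.05 and 0.16 where it was in Cy3. A second probe of pyk-1, named for its transcript F25H5.3a, averaged 0.30 and was above 0 on 5 of 6 arrays, whereas the brighter probe used for the gene is named for F25H5.3b. The former probe read higher by 1.81 on LDM in Cy5 replicate 1, and on replicate 3 it read 0.35 against -0.85. On the other 4 arrays the probes differed by at most 0.21. The mean of both probes was 0.06, above 0. Lactate dehydrogenase, which turns pyruvate to lactate, was at -0.13 (ldh-1), from -0.87 on LDM in Cy5 replicate 3 to 0.18.

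**Figure D2:**
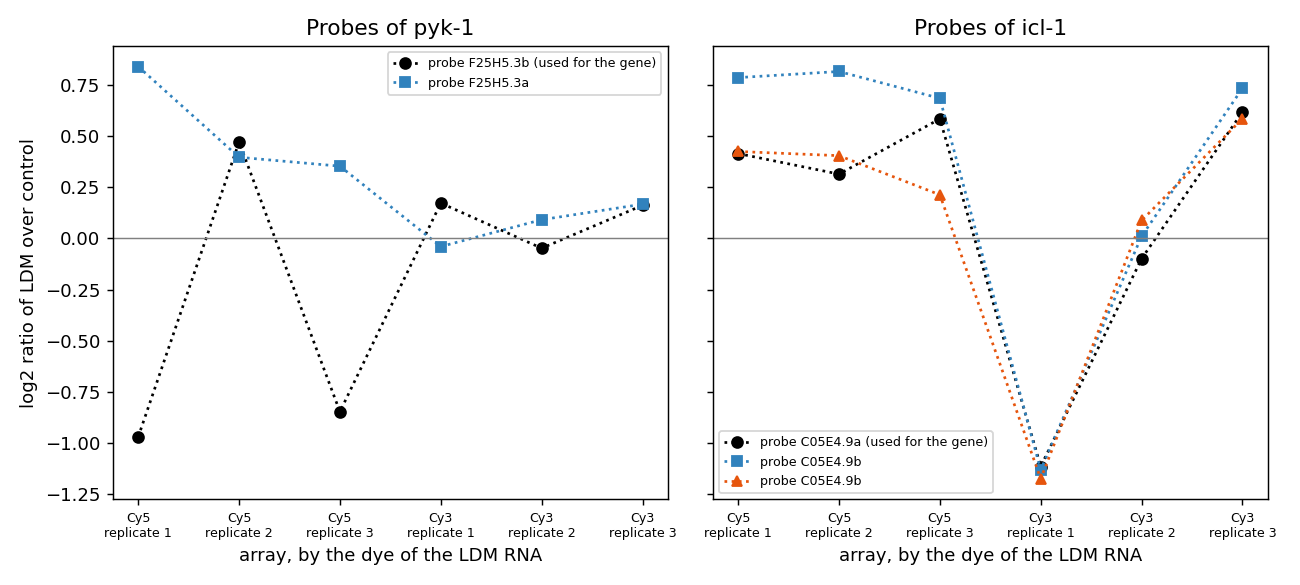
Log2 ratio of LDM over control (y axis) of each tested probe of pyk-1 (left) and icl-1 (right) on the 6 arrays (x axis, by the dye of the LDM RNA), with black for the probe that stands for the gene. The probes of pyk-1 part by 1.81 on LDM in Cy5 replicate 1 and read 0.35 and -0.85 on replicate 3, while the 3 probes of icl-1 read alike on LDM in Cy3 replicate 1, at -1.12 to -1.18.

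Fructose-1,6-bisphosphatase, encoded by fbp-1, undoes the phosphofructokinase step and is specific to gluconeogenesis. Of the enzymes it had the ratio farthest from 0. Before normalization, LDM and control intensities above background were 2630 and 9369, 10455 and 9362, and 11340 and 25058 scanner units on LDM in Cy5 replicates 1 to 3. On LDM in Cy3 replicates 1 to 3 they were 23838 and 45290, 29479 and 55711, and 18823 and 41400. Unnormalized, these values carry any difference between the dyes. They say nothing particular about fbp-1, since 26 of 32 enzymes were dimmer with LDM on 5 of 6 arrays. LDM was dimmer for 28, 1 and 32 of 33 enzymes on LDM in Cy5 replicates 1 to 3. With LDM in Cy3 it was dimmer for 33 of 33, 32 of 32 and 33 of 33. Most enzymes were thus dimmer with LDM in both dye orientations. The median over all gene probes, background included, ran the same way on each array. For LDM and control it was 279 and 302, 368 and 301, and 273 and 306 on LDM in Cy5 replicates 1 to 3. On LDM in Cy3 replicates 1 to 3 it was 757 and 1259, 831.5 and 1105.5, and 586.5 and 849.5. The cause was not tested. After normalization the log2 ratios of fbp-1 were -1.14, -0.35 and -0.69 with LDM in Cy5 and -0.18, -0.41 and -0.48 with LDM in Cy3. The mean was -0.54 (SE 0.14, 95% confidence interval -0.87 to -0.22), or 0.687 of the control level as measured after normalization. In limma its unadjusted p was 0.00523 and its adjusted p 0.286. By rank product its percentage of false positives, written as a fraction, was 0.441 against a threshold of 0.05. Thus fbp-1 passed neither test. Together with enol-1 it was 1 of 2 enzymes, among the 32 measured on all 6 arrays, that were below 0 on every array, and 3.25% of all genes so measured were. None of the 32 was above 0 on every array, against 157 of 6486 genes so measured. Its control spot had saturated pixels on LDM in Cy3 replicates 1 and 2, 5.3 and 14.5% of the spot, so that its ratio can be an upper limit only, and without these spots it could not be tested. Under print-tip loess its log2 ratio was -0.34.

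**Figure D3:**
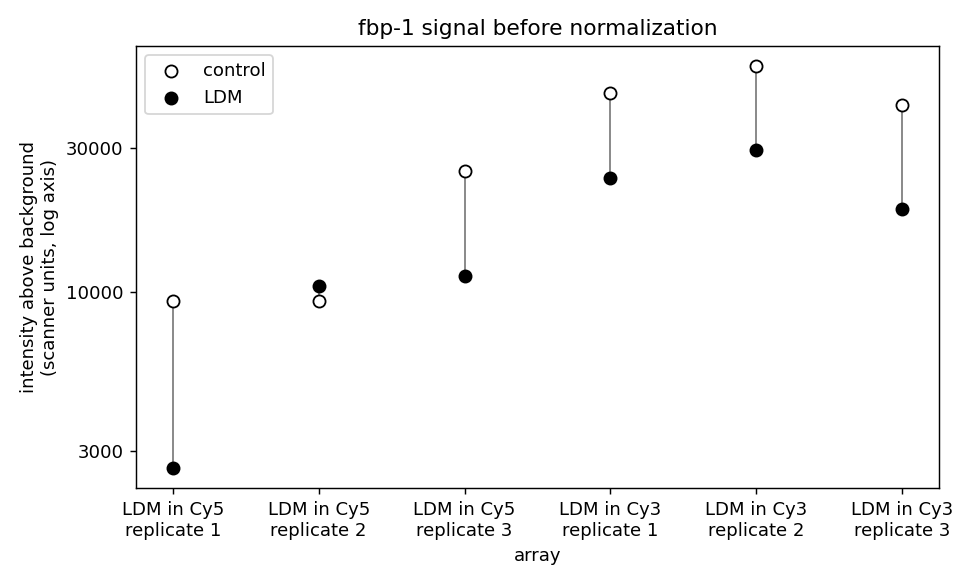
Intensity of the fbp-1 spot above background (y axis, scanner units on a log axis) for control (open circles) and LDM (filled circles) on each of the 6 arrays (x axis), before normalization between dyes. The 2 circles of an array are in different dyes. Before normalization 26 of 32 enzymes lay, like fbp-1, under control on 5 of 6 arrays, in both dye orientations. The median over all gene probes, background included, lay under control on the same 5 arrays as fbp-1.

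The other 3 genes listed for gluconeogenesis and not for glycolysis had ratios nearer to 0. Phosphoenolpyruvate carboxykinase turns oxaloacetate to phosphoenolpyruvate, and its genes pck-1 and pck-2 had fitted log2 ratios, balanced over both dye orientations, of -0.22 (SD 0.42, 5 arrays) and -0.05 (SD 0.40, 6 arrays). The plain mean of pck-1 was -0.26, and it was below 0 on 4 of 5 arrays. The fifth, LDM in Cy3 replicate 1, read 251 and 446 scanner units for LDM and control, where the other 4 read 3335 to 33138. A second probe of pck-1 averaged -0.11 over 6 arrays. Without LDM in Cy3 replicate 3 the dim spot is the only one of its orientation, and the probe used could not be tested. The second probe then stood for the gene, with a fitted ratio of 0.01. Pyruvate carboxylase, which supplies oxaloacetate, was at 0.11 (pyc-1), from -0.40 to 0.97 across arrays.

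The pyruvate dehydrogenase complex links glycolysis to the citrate cycle. The genes of its E1 subunits, pdha-1 and pdhb-1, averaged -0.04 (SD 0.26) and -0.14 (SD 0.50). The probes of pdha-1 gave 0.18 and -0.04. The array with the lowest value for pdhb-1 was LDM in Cy5 replicate 3, at -1.01.

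Citrate synthase, encoded by cts-1, opens the citrate cycle. Its log2 ratios were 0.81, 0.79, -0.02, -0.16, 0.31 and 0.33, above 0 on 4 of 6 arrays and near 0.8 on LDM in Cy5 replicates 1 and 2. The mean was 0.34 (SE 0.16, 95% confidence interval -0.03 to 0.71), with an adjusted p of 0.572 from limma, and under print-tip loess the ratio was 0.14. The aconitase genes aco-1 and aco-2 averaged 0.02 and 0.01. Isocitrate dehydrogenase genes were also near 0. The NADP-dependent idh-2 was at -0.08, and the NAD-dependent subunits idha-1 and idhg-1 were at -0.01 and -0.11. The probe of idh-1 was marked on all 6 arrays.

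The cycle goes on through the 2-oxoglutarate dehydrogenase subunit gene ogdh-1, which was at 0.23, 0.16, -0.45, 0.05, 0.24 and 0.15. It was above 0 on 5 of 6 arrays, with LDM in Cy5 replicate 3 apart from the others, and averaged 0.06 (SE 0.14). Fumarase (fum-1) was at -0.10 (SD 0.49), from -0.85 to 0.45. A second probe of fum-1 averaged 0.02. On LDM in Cy5 replicate 1 it read 0.32, where the probe used for the gene read -0.85. The malate dehydrogenase genes mdh-1 and mdh-2, for the step that remakes oxaloacetate, averaged -0.06 and -0.16. Of the 10 tested genes listed for the citrate cycle 4 were above 0 and 6 below, with a median of -0.03. That list was not sorted by cell compartment.

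The gene icl-1 encodes the bifunctional enzyme that carries both steps of the glyoxylate cycle, isocitrate lyase and malate synthase. Its ratios were 0.42, 0.31, 0.59, -1.12, -0.10 and 0.62, with a mean of 0.12 ± 0.66 (SD, n = 6). It was above 0 on 4 of 6 arrays and far below on LDM in Cy3 replicate 1, where its 3 probes gave -1.12, -1.13 and -1.18. On that array 30.3% of the control pixels of the probe used were saturated, and LDM and control intensities were 11238 and 41008. Without that array its fitted log2 ratio, balanced over both dye orientations, was 0.35.

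**Figure D4:**
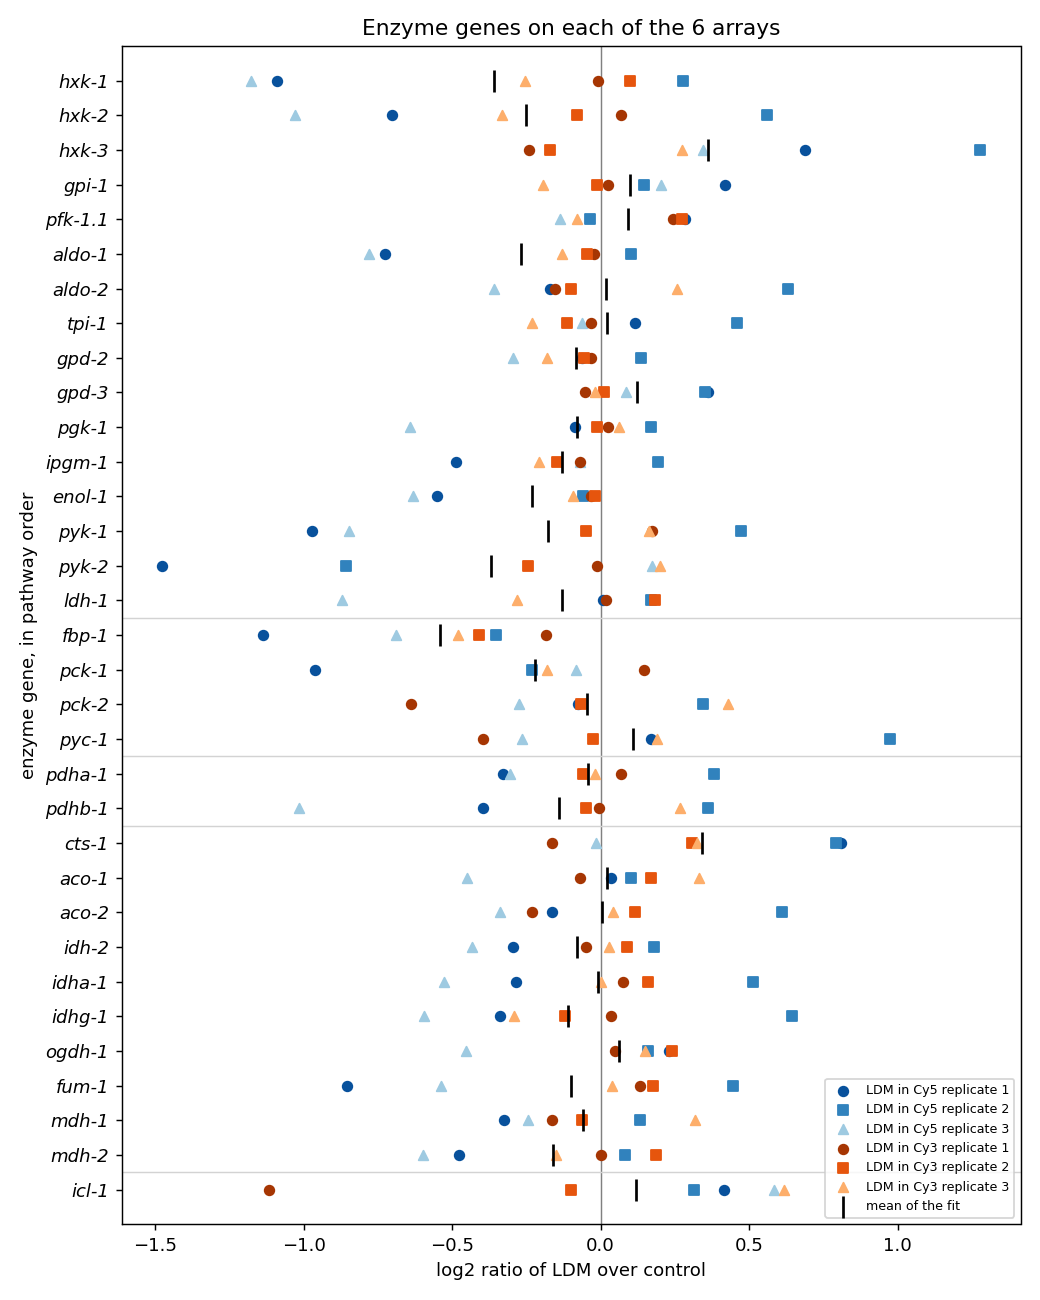
Log2 ratio of LDM over control (x axis) of the 33 tested enzyme genes in pathway order (y axis) on each of 6 arrays, blue for LDM in Cy5 and orange for LDM in Cy3, with a black bar for the mean of the fit. The blue points spread more widely than the orange ones for 29 of 32 enzymes measured on all 6 arrays, and all points of fbp-1 and enol-1 lie below 0.

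The ratios of the enzymes varied more between arrays than their means departed from 0, with a median SD of 0.36 and a median size of the mean of 0.11, against 0.42 and 0.15 for all tested genes. Their medians on LDM in Cy5 replicates 1 to 3 were -0.29, 0.28 and -0.36, with 22, 5 and 28 of 33 enzymes below 0. On LDM in Cy3 replicates 1 to 3 the medians were -0.02, -0.04 and 0.00, with 20 of 33, 20 of 32 and 16 of 33 below 0. Thus the list was mostly below control on 2 arrays with LDM in Cy5, mostly above it on the other, and had medians near 0 where LDM was in Cy3. The medians of all tested genes lay between -0.04 and 0.00 on every array, with 50.5% of the genes or more below 0. The signs of the Cy5 medians were the same under print-tip loess, median centring, scaled ratios, no background correction, the mean of all probes and the ratios of the series table.

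**Figure D5:**
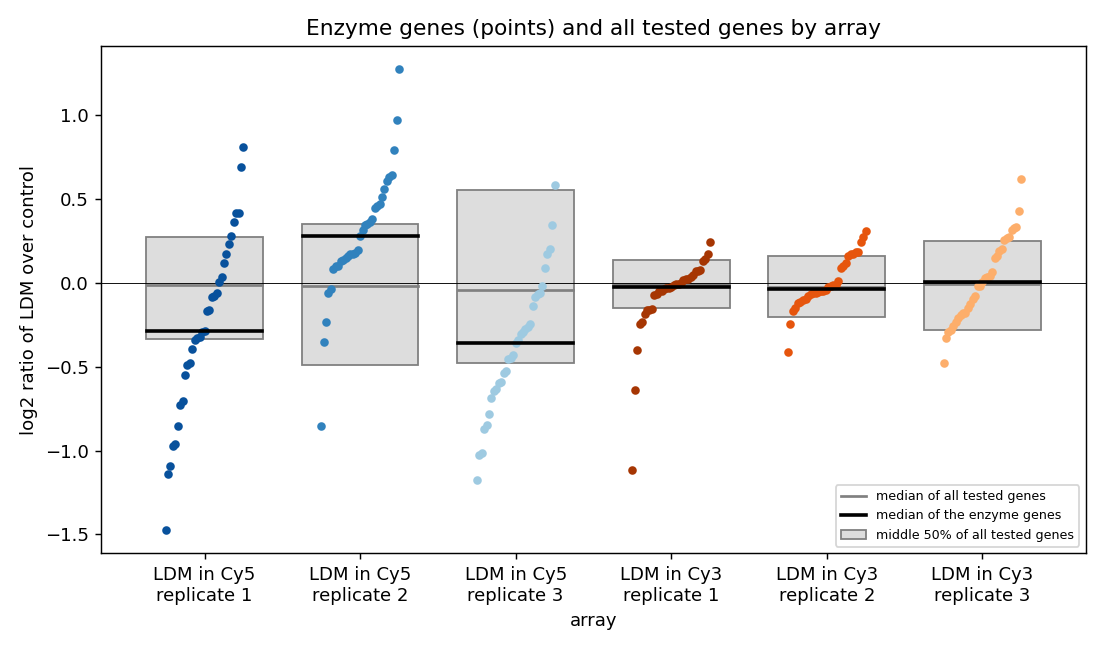
Log2 ratio of LDM over control (y axis) of the tested enzyme genes (points, sorted by value) on each of 6 arrays (x axis), with their median (black line), the median of all tested genes (grey line) and the middle 50% of all tested genes (grey box). The enzyme medians are -0.29, 0.28 and -0.36 in the Cy5 orientation and between -0.04 and 0.00 in the Cy3 orientation.

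This pattern was described after its values were seen, and carries no test. Of the 32 enzymes measured on all arrays, 24 were above 0 on LDM in Cy5 replicate 2 and below 0 on replicate 3, as were 33.5% of all genes so measured. The range over the 3 arrays with LDM in Cy5 was wider than over the 3 with LDM in Cy3 for 29 of 32 enzymes (90.6%) and for 78.8% of all such genes. The median range of an enzyme was 0.80 with LDM in Cy5 and 0.32 with LDM in Cy3, against 0.89 and 0.41 for all such genes. No enzyme passed the test for a dye effect, which 2 of all genes did.

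Marker genes of tissues and stages also varied between arrays, in several directions. The 7 tested muscle genes had medians of -0.05, 0.38 and -0.74 on LDM in Cy5 replicates 1 to 3, with 4, 1 and 7 of 7 below 0, and of -0.10, 0.06 and -0.19 on LDM in Cy3 replicates 1 to 3. The tested germ cell genes had medians of -0.18, 0.42 and -0.65 and then 0.06, -0.02 and -0.14. Yolk protein genes, of which 5 of 6 were tested, were the widest, with medians of -1.31, -1.76 and -2.37 and then -2.93, -0.72 and 2.44. Sperm genes, 10 of 14 tested, were at -0.33, -0.16 and -1.05 and then -0.72, 0.05 and 0.75. Oocyte genes, 3 of 8 tested, had 0.10, 0.48 and -1.25 and then 0.06, -0.05 and 0.25. With LDM in Cy5 the medians of the 7 tested neuron genes had signs opposite to those of the enzymes, at 0.28, -0.15 and 0.42. Of the 7 genes 0, 5 and 1 were below 0 on these arrays. With LDM in Cy3 their medians were -0.01, 0.02 and -0.07. Intestine genes, 7 of 7 tested, were at -0.36, 0.01 and -0.06 and then -0.04, 0.21 and 0.37. Cuticle and moult genes, 9 of 10 tested, were at -0.35, -0.25 and -0.38 and then 0.07, -0.18 and -0.32. The part of these tissues in the enzyme ratios was not tested.

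Neighbouring pathways likewise held no called gene, with 0 passing in limma or by rank product in each of 4 lists and 1, pfkb-1.2, at an unadjusted p under 0.05 in limma. Of 20 other genes of the citrate cycle and pyruvate, all tested, 6 were above 0 and 14 below, with a median of -0.05. The smallest unadjusted p-values were those of the succinate dehydrogenase genes sdha-1 (log2 ratio -0.32, SE 0.16) and sdhb-1 (0.19, SE 0.13), which encode subunits of 1 complex and lay on opposite sides of 0. Per array this list had medians of -0.16, 0.30 and -0.42 with LDM in Cy5 and of 0.00, 0.08 and 0.08 with LDM in Cy3, the same signs as the enzymes on the former. Of 7 pentose phosphate genes, which branch from glucose 6-phosphate, 1 was above 0 and 6 below, with a median of -0.19. They were led by F08F8.7 (-0.43, SE 0.24) and T25B9.9 (-0.26, SE 0.15), for a ribulose-phosphate epimerase and 6-phosphogluconate dehydrogenase.

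Stored sugar showed no called gene either. Of 19 genes of glycogen and trehalose metabolism 16 were tested, with a median of -0.04, 6 above 0 and 10 below. The acid glucosidase genes aagr-2 (0.24, SE 0.13, above 0 on 6 of 6 arrays) and aagr-4 (-0.22, SE 0.15, on 2 of 6) had the smallest p-values. Among glucose uptake genes and regulators, 5 of 9 were tested. The gene pfkb-1.2, for the bifunctional enzyme that sets fructose 2,6-bisphosphate, a regulator of the phosphofructokinase and fbp-1 steps, was at -0.29 (SE 0.12). It was below 0 on 6 of 6 arrays, with an unadjusted p of 0.0377 from limma. The AMP-activated kinase gene aak-2 was at 0.18 (SE 0.14).

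Weighting the arrays changed the calls. With array weights estimated by limma, which ran from 0.222 for LDM in Cy5 replicate 3 to 3.87 for LDM in Cy3 replicate 2, 1113 genes passed (13.9%) and 6 of 33 enzymes did (18.2%). Those lower were fbp-1 (-0.70, adjusted p = 0.00340), pyk-2 (-0.72, 0.00865), hxk-1 (-0.48, 0.0255), aldo-1 (-0.36, 0.0344) and pyk-1 (-0.41, 0.0468), and cts-1 was higher (0.47, 0.0219). LDM in Cy5 replicate 1, on which fbp-1, pyk-2, hxk-1 and pyk-1 were at -0.97 or lower, had a weight of 3.03, and LDM in Cy5 replicates 2 and 3 had 0.274 and 0.222. These 6 calls rest on that weighting, since no enzyme passed with the arrays weighted alike.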

How the data were processed

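For each spot of 6 two-colour arrays the authors deposited foreground and background intensities in Cy3 and Cy5 without normalization, and as deposited these files also give the percentage of saturated pixels. Their series table, as deposited, holds log2 ratios after loess within and Aquantile between arrays in limma, whose version is not given in the sources used here, and it correlated with LDM over control here at 0.974 to 0.991, with column medians of -0.00791 to -0.000467. Arrays of CPF and DZN alone were not analysed here.

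Ratios were recomputed in limma 3.58.1 with R 4.3.3 by normexp (offset 50), global loess and Aquantile. Marked spots were removed, and testing required at least 2 unmarked spots of a probe per dye orientation. A gene was represented by its brightest tested probe. Sequence names of 21382 of 22490 gene probes (95.1%) were found in the gene table of RefSeq for WBcel235. The fit had terms for LDM and dye, with empirical Bayes and Benjamini-Hochberg adjustment over 7989 genes. The rank product named in the methods was written anew with 100 permutations. Scripts were tested on simulated data. The number of arrays limits the precision.

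The members, the neighbouring lists and the marker lists were chosen with earlier results of these data known. All 37 enzymes are named, and of each neighbouring list the called genes or, with none called, the 2 with the smallest unadjusted p. Alternatives were other background corrections, normalizations, filters and designs, array weights, and each array left out.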

Additional observations from a re-analysis of the deposited data

Results flagged for a closer look

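Each of the 33 enzymes was examined for an array far from the other arrays, by the gap to the nearest array relative to the whole range. This singled out 2 of 33 enzymes, near the share of about 1 in 20 that chance gives. Both were on LDM in Cy5 replicate 3, where 28 of 33 enzymes were below 0. There pgk-1 had a log2 ratio of -0.64, with the nearest other array at -0.09. On the same array ogdh-1 had -0.45, with the nearest other array at 0.05.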

How the results depend on the processing

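The 33 enzymes were refitted under 21 alternatives, which gave 692 enzyme values. Of these, 684 stayed within 1 SD of the reported value, 2 moved by more (gpd-2 to 0.13 and gpd-3 to 0.33 under median centring) and 6 became called, all with array weights. The sign was the same in every alternative that gave a value for 13 enzymes. One of them was fbp-1, from -0.70 (array weights) to -0.34 (print-tip loess) in 20 alternatives, since without saturated spots too few arrays with LDM in Cy3 were left to test it. The number of enzymes called was 6 with array weights and 0 in every other alternative, and that of the neighbouring lists was 1 for other citrate cycle and pyruvate genes, 2 for pentose phosphate, 3 for glycogen and trehalose and 1 for uptake and regulators with array weights. Over all genes, limma called 1113 with array weights, 8 with same-numbered arrays averaged and 7 with a term for the date of image analysis, the rank product called 138, and leaving out 1 array gave 5 (without LDM in Cy5 replicate 1) to 51 (without LDM in Cy5 replicate 2). The median of the enzymes ran from -0.16 without LDM in Cy5 replicate 2 to 0.02 without LDM in Cy5 replicate 3. The causes were not tested. With the replicate number as a block 24 genes were called and 0 enzymes. The main fit did not take the numbers as pairing the samples. The deviations of same-numbered arrays correlated at -0.04, 0.39 and 0.22, and those of unlike-numbered arrays at -0.38 to 0.03. Whether the numbers pair the samples is not settled by these values.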
